A study of Homo sapiens with 8 samples.

Results

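Heat shock proteins and chaperones were followed through knock-down of the MLL/AF4 fusion in SEM cells, an established leukaemia line of the B-cell precursor lineage. The set held 10 genes: the stress-inducible cytosolic chaperones HSPA1A, HSPA1B, DNAJB1 and HSPH1, the constitutive HSPA8, the HSP90 genes HSP90AA1 and HSP90AB1, HSPA5 of the endoplasmic reticulum, and HSPD1 and HSPE1 of mitochondria. Every probe that the array annotation assigned to these symbols was used, which gave 17 probes of 39421 on the arrays, where 18205 genes had a probe. HSPD1 had 4 probes, HSP90AA1 had 3, HSPA8 and HSPE1 had 2 each, and the other 6 genes had 1 each.

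All cells were electroporated. The siMLL/AF4 cells received small interfering RNA against the fusion transcript, the siCtrl cells a control siRNA, and the MOCK cells the electric pulse without siRNA. Pulses were given up to 3 times, 2 days apart, and cells were harvested 2 days after a pulse, on day 2, day 4 or day 6. The siMLL/AF4 and siCtrl cells were measured on all 3 days, and MOCK cells only on the first 2 of these days. A single Illumina bead array was run for every combination of treatment and day, which makes 8 arrays. Nothing in the labels says that the days came from separate cultures, so each p-value below measures the spread between days and arrays of 1 cell line.

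Chaperones bind unfolded stretches of other proteins and keep them from aggregating while they fold. HSP70 proteins work in cycles of ATP hydrolysis that J-domain proteins such as DNAJB1 start and that exchange factors such as HSPH1 complete, and many of their clients, kinases among them, pass on to HSP90. The HSP60 protein HSPD1 forms a folding chamber in mitochondria that the co-chaperonin HSPE1 closes. Heat, toxic agents and other insults that unfold proteins free the transcription factor HSF1 in the cytosol, which then binds paired GAA units in front of its target genes. HSPA5 (BiP) belongs to the unfolded protein response of the endoplasmic reticulum, in which ATF6 and NF-Y bind an element that joins CCAAT to CCACG.

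The promoters of the 10 genes differ in these letters. In RefSeq, on GRCh38.p14, 16 transcription starts were listed for the 10 genes, and the 250 bases before each were searched on both strands. The sequences below are those of both inducible HSP70 genes, the constitutive HSPA8, the HSP90AA1 start that carries GAA units, and HSPA5. Each of them holds a match, which is not so for all members. Capitals mark matches to GAANNTTC or TTCNNGAA, alone or joined, and in HSPA5 the match to CCAAT followed by CCACG with 9 bases between them.
HSPA1A, chr6:31815293-31815542, plus strand: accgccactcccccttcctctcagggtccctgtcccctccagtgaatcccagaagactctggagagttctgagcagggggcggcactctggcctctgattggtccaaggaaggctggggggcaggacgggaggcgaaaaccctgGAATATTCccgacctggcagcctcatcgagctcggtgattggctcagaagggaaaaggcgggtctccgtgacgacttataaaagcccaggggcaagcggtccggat
HSPA1B, chr6:31827488-31827737, plus strand: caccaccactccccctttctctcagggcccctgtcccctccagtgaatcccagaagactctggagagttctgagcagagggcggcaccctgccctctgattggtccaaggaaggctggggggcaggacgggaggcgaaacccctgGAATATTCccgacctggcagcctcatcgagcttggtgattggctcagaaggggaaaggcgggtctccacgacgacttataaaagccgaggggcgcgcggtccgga
HSPA8, chr11:123062137-123062386, minus strand: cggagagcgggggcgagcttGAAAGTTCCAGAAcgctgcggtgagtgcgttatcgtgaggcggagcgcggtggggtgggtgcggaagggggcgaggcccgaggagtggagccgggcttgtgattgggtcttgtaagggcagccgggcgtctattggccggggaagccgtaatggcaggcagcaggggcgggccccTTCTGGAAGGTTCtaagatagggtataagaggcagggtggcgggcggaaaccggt
HSP90AA1, chr14:102087045-102087294, minus strand: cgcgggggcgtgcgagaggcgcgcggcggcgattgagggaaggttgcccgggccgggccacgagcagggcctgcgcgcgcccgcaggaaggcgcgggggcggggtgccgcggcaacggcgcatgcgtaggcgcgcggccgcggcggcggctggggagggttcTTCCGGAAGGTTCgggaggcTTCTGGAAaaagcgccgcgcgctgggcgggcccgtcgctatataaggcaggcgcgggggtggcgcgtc
HSPA5, chr9:125241344-125241593, minus strand: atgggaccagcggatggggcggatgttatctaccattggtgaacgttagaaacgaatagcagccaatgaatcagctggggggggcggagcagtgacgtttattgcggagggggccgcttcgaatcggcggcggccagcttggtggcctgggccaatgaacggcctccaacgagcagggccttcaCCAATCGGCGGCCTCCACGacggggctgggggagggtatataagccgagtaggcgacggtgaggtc

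A run of 3 alternating units (GAA, TTC and GAA, each 2 bases from the next) was found before HSPA8, HSP90AA1, HSP90AB1 and HSPD1, which is 4 of the 10 genes, against 0.441% of all 35116 RefSeq promoter windows. A pair of units, GAANNTTC or TTCNNGAA, was found before 7 of the 10 genes, HSPA1A, HSPA1B and DNAJB1 included, against 11.6% of all windows. The longer motif contains both pairs. HSPH1, listed above as stress-inducible, held no such pair in its window, nor did HSPE1 and HSPA5. HSPA5 alone among the members held the CCAAT and CCACG pair at that spacing, which 0.0740% of all windows held. A gene with several starts has more chances of a match than a single window, and a match is a run of letters, not a shown binding site. HSPA1A and HSPA1B are near copies whose starts lie 12195 bases apart on chromosome 6. Their printed promoters are identical at 235 of 251 aligned positions (93.6%). Whether each of their probes measured its own gene alone was not tested, so values of HSPA1A and HSPA1B cannot be counted as 2 separate observations. HSPD1 and HSPE1 face away from each other on chromosome 2, with their outermost starts 105 bases apart.

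All levels are on the log2 scale. The deposited numbers carry no stated base and were read as natural logs, then divided by ln 2; were the base 2, every level and difference would shrink to 0.693 times its printed size, with unchanged p-values. The 8 arrays had 1 common distribution of values, with a median of 5.16, so a value stands relative to the labelled RNA of its array. In bulk RNA, fewer cells of a kind and less RNA per cell cannot be told apart. Day 6 was run on a newer array version than day 2 and day 4, so treatments were compared within a day. The siMLL/AF4 array of day 6 stood furthest from the older arrays, with a median rank correlation (Spearman) of 0.861 to them over probes, where siCtrl of day 6 had 0.906 and the older arrays had 0.944 to 0.961 with each other. Probes of the fusion's partner genes were lower in siMLL/AF4 than in siCtrl on each day, by -0.49 to -0.55 for KMT2A and by -0.35 to -2.02 for AFF1. These probes also measure transcripts outside the fusion. Of the markers of a B-cell precursor, 6 of the 9 genes with a probe had a value on all arrays, each above the median (CD79A and EBF1 among them), while PAX5, DNTT and VPREB3 lacked one. A value on all arrays was found for 2 of 9 myeloid genes, 2 of 10 T and NK cell genes and 0 of 6 erythroid genes. The defining genes MPO and CD3E were among those without one. CSF1R of the myeloid list and NKG7 of the T and NK cell list also stood above the median. Their percentiles were 57.8 and 69.3, where the B-cell precursor genes had 61.7 to 92.6. Some of these markers differed between treatments, although none passed the test. Between siMLL/AF4 and siCtrl, the myeloid LYZ differed by 1.38, 0.67 and 1.15 on day 2, 4 and 6, and GZMA of the T and NK cell list by -1.14, -1.26 and -2.11. The other tested gene of each list changed sign between days. CSF1R of the myeloid list differed by 0.57, -1.40 and -1.41, and NKG7 of the T and NK cell list by -0.44, 0.46 and -0.088. Of the 6 B-cell precursor genes, 4 were higher in siMLL/AF4 than in siCtrl with a median of 0.25, and 5 were lower in siCtrl than in MOCK with a median of -0.70. Their part in the chaperone results was not tested.

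The first comparison asked how the chaperones stood after fusion knock-down, siMLL/AF4 against siCtrl. HSPA1A and HSPA1B were higher in siMLL/AF4 cells on all 3 days, up to 2.01-fold for HSPA1A on day 4, and the difference was near 0 on day 6. HSPA5, at its only and rather dim probe, was lower on all 3 days, slightly on day 2 and day 4 and 4.71-fold on day 6. The mitochondrial pair, HSP90AB1 and most other probes changed sign between days. No chaperone probe passed the test over the 3 days.

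HSPA1A (ILMN_1789074), the stress-inducible HSP70, had log2 levels of 8.52, 9.20 and 8.97 in siMLL/AF4 cells on day 2, 4 and 6, against 8.10, 8.19 and 8.96 in siCtrl cells and 7.69 and 7.96 in MOCK cells on day 2 and 4. HSPA1B (ILMN_1660436) had 11.29, 11.30 and 10.18 in siMLL/AF4 cells, against 10.71, 10.55 and 10.06 in siCtrl cells and 10.56 and 10.32 in MOCK cells. On day 2 and day 4 the order was the same at both probes, with siMLL/AF4 highest and MOCK lowest. As said above, these probes cannot be counted as 2 separate observations. On day 6 the siRNA groups were nearly level, and the groups overlapped over the days. Averaged over the days, the difference between siMLL/AF4 and siCtrl was 0.48 ± 0.29 (SE, n = 3 days) for HSPA1A and 0.48 ± 0.26 for HSPA1B, and neither passed (limma, adjusted p = 0.767 and 0.727). For HSPA1A the difference was 0.72 without day 6, 0.22 without day 4 and 0.51 without day 2. For HSPA1B it was 0.66, 0.34 and 0.43 when the same days were left out.

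On day 2 and day 4 the partners of HSP70 differed less between the siRNA groups. DNAJB1 (ILMN_1775304), the J-domain protein that hands clients to HSP70, had 10.47, 10.29 and 9.11 in siMLL/AF4 cells, against 10.37, 10.25 and 9.32 in siCtrl cells and 10.60 and 10.73 in MOCK cells. HSPH1 (ILMN_1712888), the HSP110 exchange factor, had 12.47, 11.89 and 11.95 in siMLL/AF4 cells, against 12.38, 12.02 and 11.69 in siCtrl cells and 11.74 and 11.29 in MOCK cells. Over the days, siMLL/AF4 differed from siCtrl by -0.21 to 0.10 for DNAJB1 and by -0.13 to 0.27 for HSPH1. MOCK stood apart on both days, above the siRNA groups for DNAJB1 and below them for HSPH1. The fitted differences between siMLL/AF4 and siCtrl were -0.024 ± 0.24 and 0.076 ± 0.24 (SE).

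Among the chaperones that cells make at all times, HSPA8 (HSC70) had 13.81, 13.55 and 13.01 at ILMN_1686367 in siMLL/AF4 cells, against 13.82, 13.77 and 13.19 in siCtrl cells and 13.33 and 13.49 in MOCK cells. Its second probe, ILMN_2413084, differed between siMLL/AF4 and siCtrl by 0.0063, -0.059 and 0.022, so the siRNA groups were nearly level there. The HSP90AA1 probes ILMN_2373515 and ILMN_1691097 measured the inducible HSP90 isoform and differed by -0.073 to 0.31 over the days. The remaining HSP90AA1 probe, ILMN_1687546, was dim and had 6.46, 7.23 and 3.44 in siMLL/AF4 cells, against 6.71, 6.88 and 6.22 in siCtrl cells and 7.75 and 7.51 in MOCK cells. It was 6.85-fold lower on day 6, a difference that the bright probes of the gene did not show, and its fitted value of -0.89 ± 0.60 (SE) was 0.051 without that day and -0.27 with an offset of 64 added to the linear values, which shrinks differences between dim values. HSP90AB1 (ILMN_1673711), the constitutive HSP90, had 14.23, 13.08 and 12.21 in siMLL/AF4 cells, against 13.28, 13.45 and 12.69 in siCtrl cells and 13.25 and 13.44 in MOCK cells. The siMLL/AF4 array of day 2 was the highest of the 8 for this gene, and the sign turned on day 4 and day 6.

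HSPA5 (ILMN_1773865), the HSP70 of the endoplasmic reticulum, had 7.78, 7.38 and 5.38 in siMLL/AF4 cells, against 7.99, 7.54 and 7.62 in siCtrl cells and 8.14 and 7.86 in MOCK cells. Within each day siMLL/AF4 was the lowest and MOCK, where measured, the highest. The siMLL/AF4 array of day 6 lay below every other array for this gene, and its 5.38 was close to the array median of 5.16. HSPA5 had no other probe to set beside this one. The mean of the probe stood at percentile 42.6 of probes with a value on all arrays. The fitted difference from siCtrl was -0.87 ± 0.46 (SE; limma, adjusted p = 0.722), and it was -0.18 without day 6 and -0.53 with the offset of 64. The day 6 array that carried this value was also the array least like the others; its part in the result was not tested.

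At HSPE1 the siRNA groups stood furthest apart on day 2, while the tested HSPD1 probes were above siCtrl on day 2 and below it later. HSPE1 had 8.89, 10.97 and 11.41 at ILMN_2092536 in siMLL/AF4 cells, against 10.68, 10.87 and 10.90 in siCtrl cells and 10.41 and 10.73 in MOCK cells. At ILMN_1803775 it had 12.59, 13.27 and 12.08 in siMLL/AF4 cells, against 13.36, 13.15 and 12.24 in siCtrl cells and 13.07 and 13.10 in MOCK cells. At both HSPE1 probes the siMLL/AF4 array was lower on day 2, by 3.46-fold and 1.71-fold, and within 1.08-fold on day 4. HSPD1 went the other way on day 2 at 3 of its 4 probes: ILMN_1766713 had 14.66, 13.75 and 12.61 in siMLL/AF4 cells, against 13.94, 14.19 and 13.04 in siCtrl cells and 13.88 and 13.80 in MOCK cells. ILMN_1784367 and ILMN_2381397 likewise stood above siCtrl on day 2, by 0.49 and 0.085, and below it on day 4 and day 6, by -0.28 and -0.74 for the first and by -0.12 and -0.17 for the second. The fourth, ILMN_1774410, was near the lower end of the scale, between 3.79 and 5.79, and did not pass the filter on dim probes in this comparison. The fitted differences of the tested HSPD1 and HSPE1 probes lay between -0.39 and -0.044, and all had adjusted p-values (limma) of at least 0.891.

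**Figure D1:**
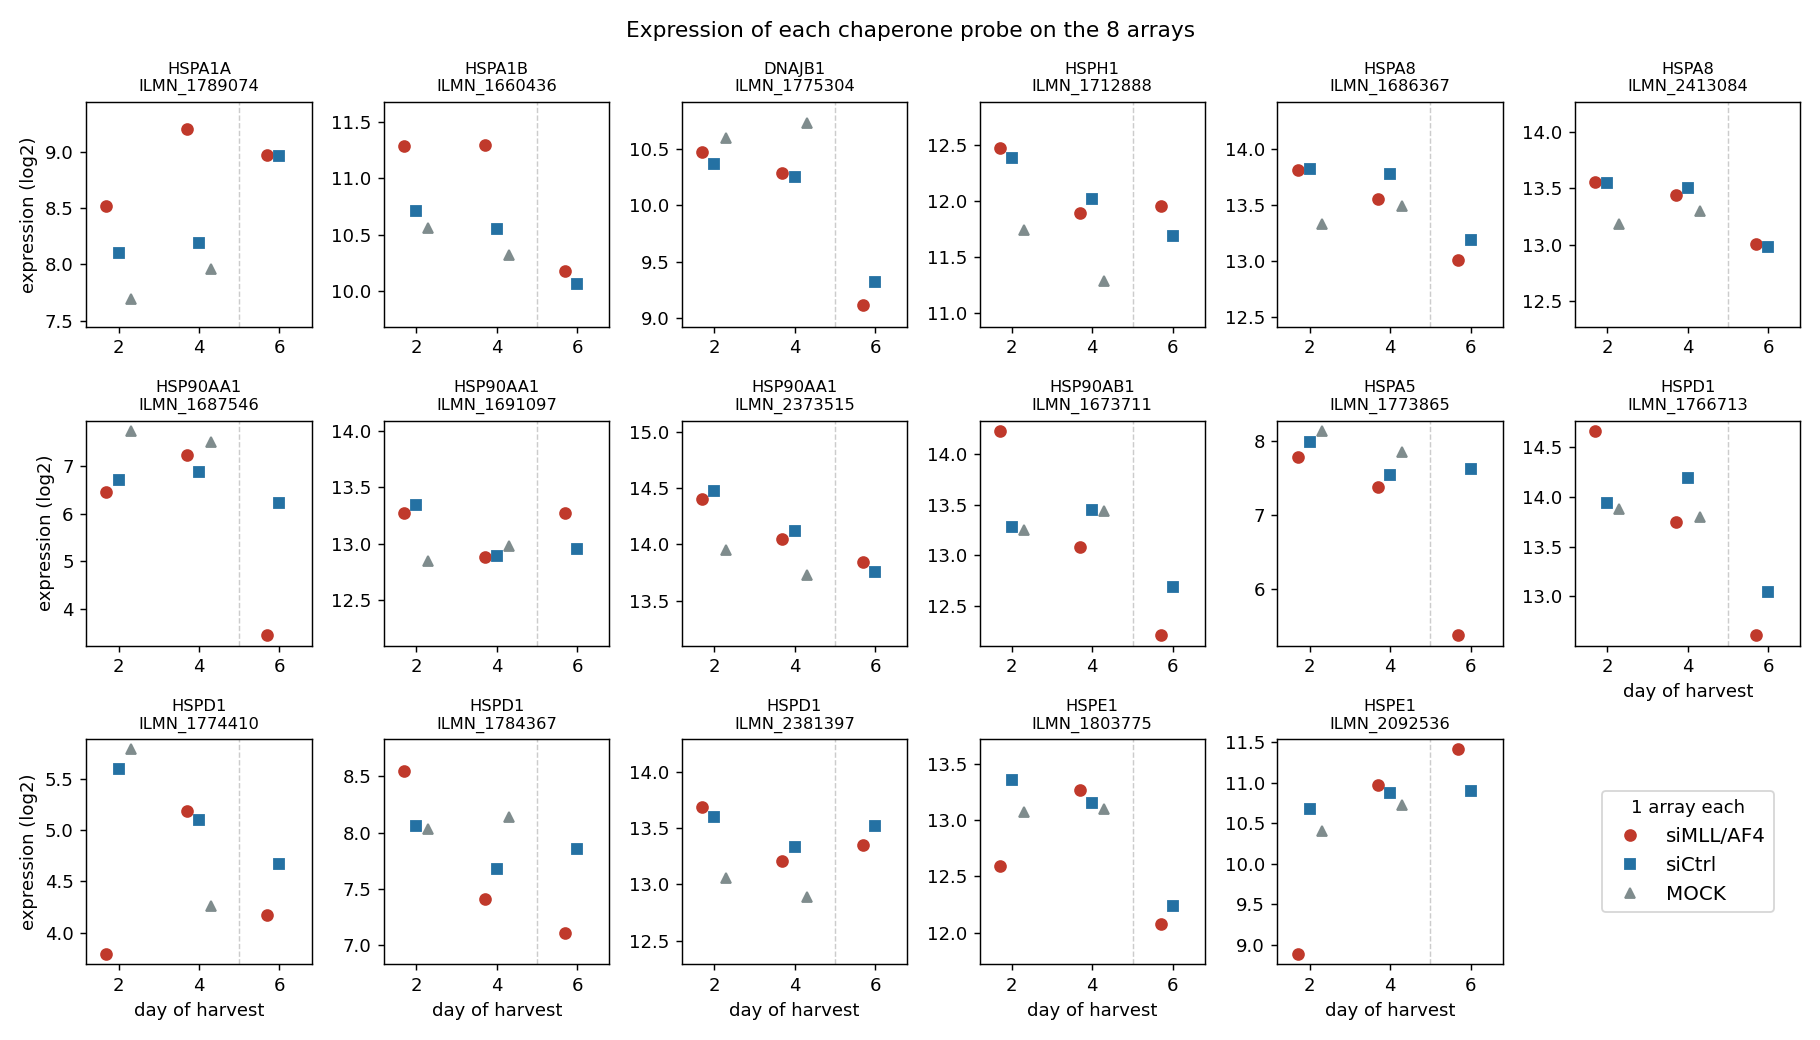
Each panel shows 1 probe, with day of harvest on the x axis, log2 expression on the y axis and 1 point per array for siMLL/AF4, siCtrl and MOCK; a dashed line parts the older array version (day 2 and 4) from the newer (day 6), and each panel has its own y range of at least 2 log2 units. HSPA1A and HSPA1B are highest in siMLL/AF4 on day 2 and day 4, HSPH1 is lowest in MOCK, and HSPA5 is lowest in siMLL/AF4 on day 6.

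Of the 17 probes, 16 passed the filter on dim probes and were tested. With limma, 0 of these 16 had an adjusted p under 0.05, and 0 of all 10765 probes did (0%). At an unadjusted p under 0.05 there were 0 of the 16, against 851 of 10765 (7.91%). Higher fitted values were found for 5 of the 16 and lower for 11. Their median was -0.034, beside -0.019 for all tested probes. Higher on all 3 days were 2 of 16 (HSPA1A and HSPA1B), where 14.1% of all probes were, and lower on all 3 days were another 2 (HSPA5 and HSPA8 at ILMN_1686367), where 15.0% were. No chaperone probe had siMLL/AF4 and siCtrl arrays without overlap, which 6.74% of all probes did. These shares are near the background. Single days have no replicate and were not tested. A 2-fold difference was reached there by HSPE1 (ILMN_2092536) on day 2, as 1 of 16 lower (6.77% of all probes), by HSPA1A on day 4, as 1 of 16 higher (4.09%), and by HSPA5 and HSP90AA1 (ILMN_1687546) on day 6, as 2 of 16 lower (9.90%).

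**Figure D2:**
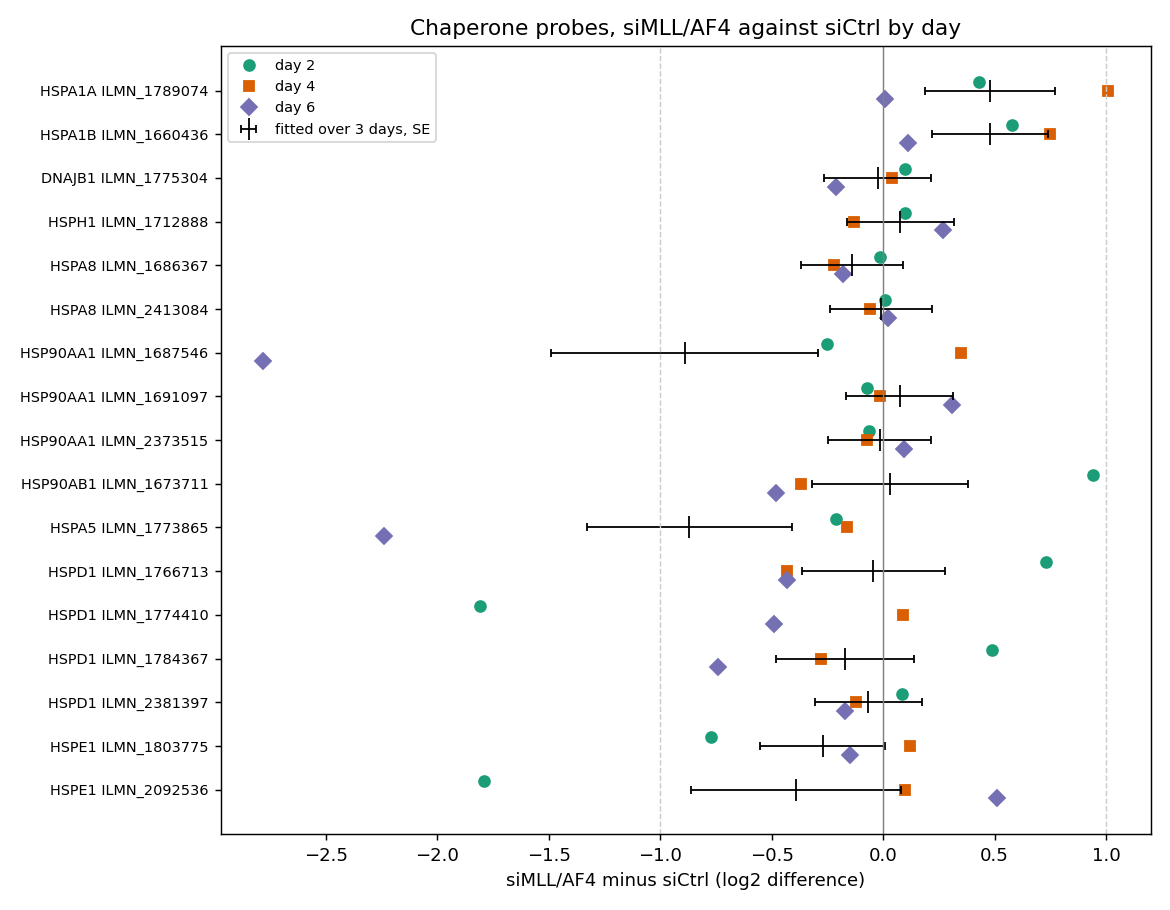
The x axis gives the log2 difference siMLL/AF4 minus siCtrl for each chaperone probe, with a point for each day and, in black, the value fitted over the 3 days with its standard error; dashed lines mark 2-fold. Points of different days scatter to both sides of 0 for most probes, HSPA1A and HSPA1B stay at or above 0, and the day 6 points of HSPA5 (-2.24) and of HSP90AA1 at ILMN_1687546 (-2.78) stand far from the other days.

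The second comparison set the siRNA-treated cells against MOCK on day 2 and day 4, where MOCK cells had the pulse alone. Of the 16 tested chaperone probes, 7 in siMLL/AF4 cells lay above MOCK on both days, where 35.3% of all probes did, and 11 in siCtrl cells, where 34.3% did. HSPH1, HSPA1A, HSPA1B and HSPA8 were among them in both groups. DNAJB1 and HSPA5 lay below MOCK in both groups. The 7 of 16 in siMLL/AF4 cells are near the background. Some genes were counted at several probes, which are not separate observations. In siCtrl cells the 11 include HSP90AB1, which differed from MOCK by only 0.038 and 0.012 on day 2 and day 4. For HSPA1A and HSPA1B the excess over MOCK was larger in siMLL/AF4 than in siCtrl cells. None of these differences passed. Both siRNA groups were compared with the same MOCK arrays, so their agreement in sign is not independent.

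HSPH1 was above MOCK by 0.73 and 0.60 in siMLL/AF4 cells on day 2 and day 4, and by 0.64 and 0.73 in siCtrl cells. All 4 older siRNA arrays lay above both MOCK arrays for this gene. The same held for HSPA1A, both HSPA8 probes, HSP90AA1 at ILMN_2373515 and HSPD1 at ILMN_2381397, so it was not particular to HSPH1. At DNAJB1 and the dim HSP90AA1 probe ILMN_1687546 they lay below both. How large a share of all probes had such a gap was not counted, so no result is read from it. Fitted over all 8 arrays, the HSPH1 difference was 0.71 ± 0.23 for siMLL/AF4 (SE, limma, adjusted p = 0.160) and 0.64 ± 0.23 for siCtrl (adjusted p = 0.205). HSPA1A was above MOCK by 0.83 and 1.24 in siMLL/AF4 cells and by 0.40 and 0.24 in siCtrl cells. Its fitted values were 0.92 ± 0.29 and 0.44 ± 0.29 (SE). Fitted values against MOCK also draw on the day 6 siRNA arrays, so they are not means of day 2 and day 4. For siMLL/AF4 the adjusted p (limma) of HSPA1A was 0.153, and it was 0.0469 under a filter that kept fewer dim probes, over a range of 0.0469 to 0.688 in 15 other settings. HSPA1B was above MOCK by 0.73 and 0.98 in siMLL/AF4 cells and by 0.15 and 0.23 in siCtrl cells, and the fitted value of 0.76 ± 0.26 for siMLL/AF4 had an adjusted p (limma) of 0.162.

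HSPA8 lay above MOCK as well, at ILMN_1686367 by 0.47 and 0.060 in siMLL/AF4 cells and by 0.49 and 0.28 in siCtrl cells. HSP90AA1 at its brightest probe, ILMN_2373515, was above MOCK by 0.45 and 0.32 in siMLL/AF4 cells and by 0.52 and 0.40 in siCtrl cells. HSPD1 at ILMN_2381397 was above MOCK by 0.62 and 0.32 in siMLL/AF4 cells and by 0.54 and 0.43 in siCtrl cells. These shifts were modest, between 1.04-fold and 1.54-fold, and each was smaller on day 4 than on day 2. DNAJB1 lay below MOCK by -0.14 and -0.44 in siMLL/AF4 cells and by -0.23 and -0.48 in siCtrl cells, so HSPA1A and DNAJB1 stood on opposite sides of MOCK. HSPA5 lay below MOCK by -0.36 and -0.48 in siMLL/AF4 cells and by -0.15 and -0.32 in siCtrl cells. The 8-array fit gave 0.11 ± 0.50 (SE) for HSPA5 in siCtrl against MOCK, with a sign opposite to both days. That fit includes the day 6 arrays; on the 6 older arrays the value was -0.23.

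Below MOCK on both days were 3 of the 16 in each siRNA group, where 31.2% of all probes were in siMLL/AF4 and 40.4% in siCtrl cells. The 3 below MOCK were the same in both groups: DNAJB1, HSPA5 and the dim HSP90AA1 probe ILMN_1687546. The median over the 16 fitted values was 0.24 for siMLL/AF4, beside -0.0060 for all 10730 probes, and 0.21 for siCtrl, beside -0.028. In siCtrl cells without the time point as a block the median was 0.051, and in siMLL/AF4 cells it was -0.051. A fit without that block sets the day 6 siRNA arrays, of the newer version, against MOCK arrays of earlier days only. Without day 2 the median was 0.082 for siMLL/AF4 and 0.19 for siCtrl, and without day 4 it was 0.46 and 0.36. Since 9 of the 16 belonged to the brightest 10% of tested probes, all probes in that range were set beside them. On day 2 the 9 had a median of 0.47 in siMLL/AF4 and 0.49 in siCtrl cells against MOCK, while the 1073 brightest probes had -0.014 and -0.10. On day 4 the 9 had 0.13 and 0.28, and the 1073 had -0.0067 and -0.013. HSPA8, HSP90AA1 and HSPD1 each had more than a single probe among the 9, and such probes are not separate observations.

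With limma, 0 of the 16 and 0 of all 10730 probes (0%) had an adjusted p under 0.05 in either contrast. At an unadjusted p under 0.05 there were 3 of the 16 for siMLL/AF4 against MOCK (HSPA1A, HSPA1B and HSPH1), where 22.8% of all probes were, and 1 of the 16 for siCtrl (HSPH1), where 21.6% were. These shares do not exceed the background. At least 2-fold differences on day 2 were found below MOCK for 2 of 16 in siMLL/AF4 cells (HSPE1 at ILMN_2092536 and HSP90AA1 at ILMN_1687546; 9.93% of all probes) and 1 of 16 in siCtrl cells (HSP90AA1 at ILMN_1687546; 7.85%). On day 4, HSPA1A in siMLL/AF4 cells was the only chaperone probe past 2-fold, as 1 of 16 higher (6.54%).

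**Figure D3:**
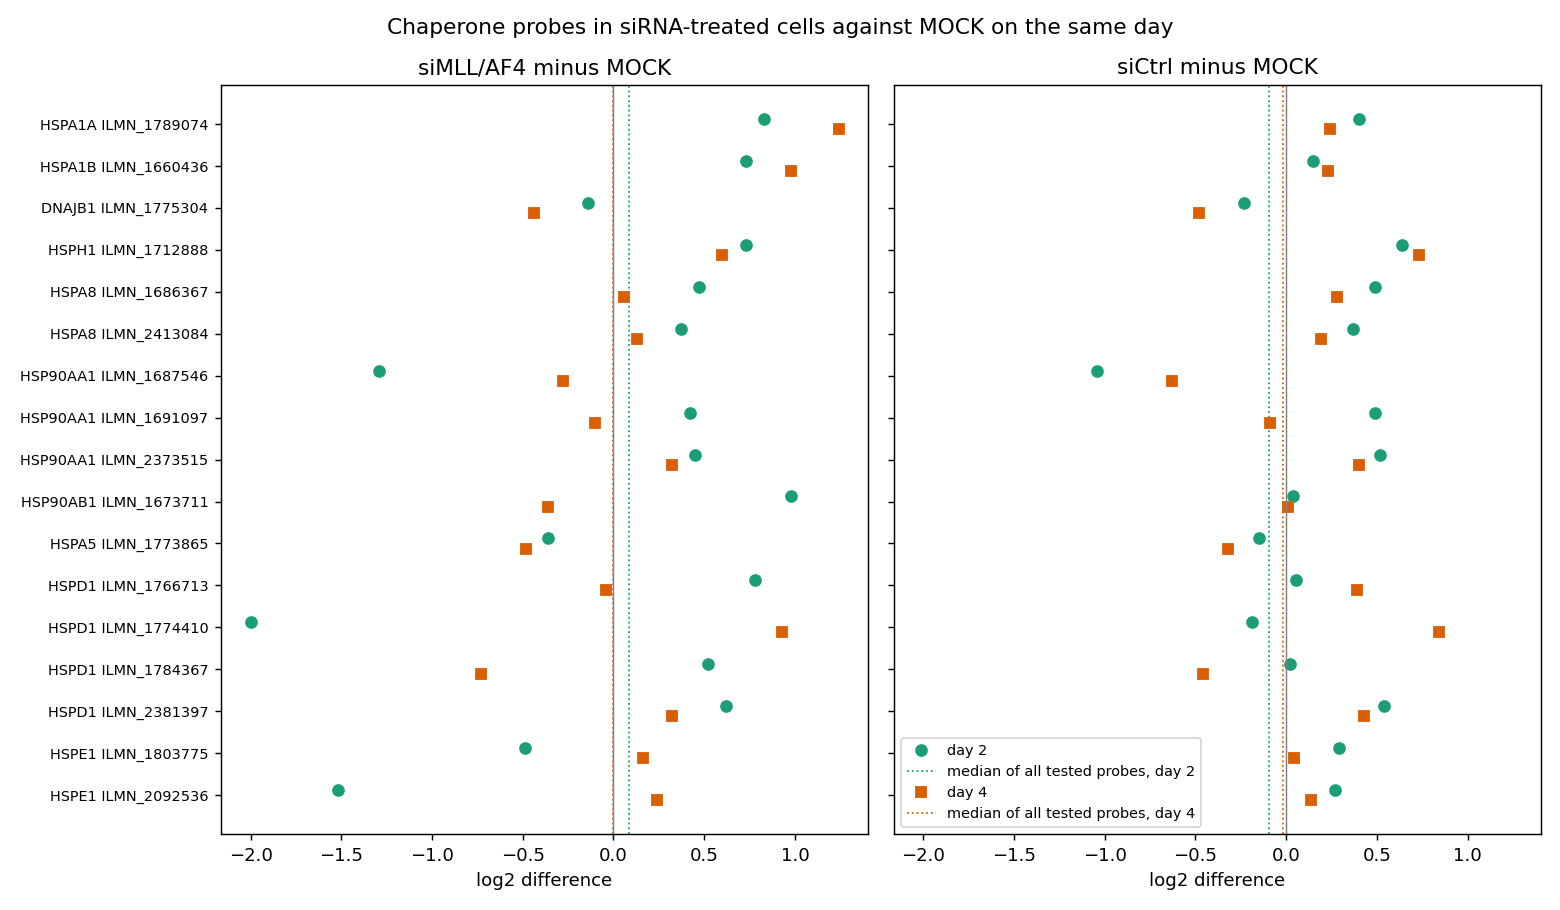
The x axes give the log2 difference from MOCK on the same day for siMLL/AF4 (left) and siCtrl (right), 1 row per chaperone probe, with day 2 and day 4 as separate points and dotted lines at the median of all tested probes. HSPH1 lies 0.60 to 0.73 above MOCK at all 4 points, HSPA1A reaches 1.24 with siMLL/AF4, and DNAJB1 and HSPA5 lie left of 0 at all 4 points.

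The third comparison followed the chaperones from the first to the second pulse, day 4 against day 2, on the 6 arrays of the older version. HSPH1, HSPA5, HSP90AA1 (ILMN_2373515) and HSPD1 (ILMN_2381397) were lower on day 4 in all 3 treatments, MOCK included. HSPA1A and HSPE1 (ILMN_2092536) were higher on day 4 in all 3. HSPH1 differed by -0.58 in siMLL/AF4, -0.35 in siCtrl and -0.45 in MOCK cells, with a fitted value of -0.46 ± 0.21 (SE; limma, adjusted p = 0.407). HSPA5 differed by -0.40, -0.44 and -0.28 in siMLL/AF4, siCtrl and MOCK cells (-0.37 ± 0.21, SE; limma, adjusted p = 0.452). HSPA1A differed by 0.68 in siMLL/AF4 cells, 0.10 in siCtrl cells and 0.26 in MOCK cells. HSPE1 at ILMN_2092536 differed by 2.08 in siMLL/AF4 cells, 0.19 in siCtrl cells and 0.32 in MOCK cells, so its fitted 0.87 ± 0.43 (SE) was 0.26 without the siMLL/AF4 arrays.

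Over the 17 probes tested here, 4 were lower on day 4 in all 3 treatments (20.9% of all 12928 probes) and 2 were higher (21.1%), which is close to the background. The median of the 17 fitted values was -0.21, beside 0.0073 for all probes, and it was -0.093 without the siMLL/AF4 arrays, -0.12 without the siCtrl arrays and -0.15 without the MOCK arrays. Within a treatment the median was -0.26 in siMLL/AF4 cells (-0.11 for all probes), -0.17 in siCtrl cells (0.071) and 0.028 in MOCK cells (0.030), where 9 probes were higher and 8 lower. With limma, 0 of the 17 and 0 of 12928 (0%) had an adjusted p under 0.05, and 0 of the 17 had an unadjusted p under 0.05 (12.4% of all probes). Differences of at least 2-fold were seen at 4 of 17 probes in siMLL/AF4 cells (18.2% of all probes), at 0 of 17 in siCtrl cells (15.6%) and at 1 of 17 in MOCK cells (9.79%). The 4 were HSPE1 and HSPD1 (ILMN_1774410), higher on day 4, and HSP90AB1 and HSPD1 (ILMN_1784367), lower on day 4. On day 2 the siMLL/AF4 array had been the lowest of the older arrays at the first pair and the highest at the second.

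On day 6, 9 of the 16 probes were below their day 2 and day 4 values in both siRNA groups, where 32.4% of all probes were. DNAJB1 was 9.11 in siMLL/AF4 and 9.32 in siCtrl cells on day 6, against 10.25 to 10.47 on the earlier days. HSPA8 (ILMN_1686367) was 13.01 in siMLL/AF4 and 13.19 in siCtrl cells, against 13.55 to 13.82 before. HSPA1A in siCtrl cells went the other way and was 8.96 on day 6, against 8.10 and 8.19. Day 6 and the newer array version cannot be told apart, and there was no MOCK array on that day.

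Other chaperones and their partners were read from 9 lists of 1 to 19 tested genes each, 1 probe per gene, and some genes belong to several lists. For siMLL/AF4 against siCtrl no gene of any list passed, in either direction. Values fitted over the days were mostly lower for genes of folding and stress in the endoplasmic reticulum. Of these 18 genes, 12 were lower and 6 higher, with a median of -0.18, although on day 2 alone more of them were higher than lower. Mitochondrial chaperones and proteases had mostly higher fitted values, 9 of 11 with 2 lower and a median of 0.15. The median over all 8320 tested genes was -0.0039, and 49.4% of them were higher. HYOU1, the exchange factor of HSPA5, was lower by -0.98, -0.84 and -0.85 on day 2, 4 and 6 (fitted -0.89 ± 0.23, SE; limma, adjusted p = 0.453). Its differences varied less over the days than those of HSPA5. PDIA4, a disulfide isomerase of the same compartment, was lower by -0.18, -0.67 and -1.52 (adjusted p = 0.631, limma). PPP1R15A (GADD34), which restores translation after stress, was higher by 1.08, 0.78 and 0.74 (fitted 0.87 ± 0.24, SE; limma, adjusted p = 0.472). Some genes of the endoplasmic reticulum changed sign between days. HSP90B1 differed by 0.35, -0.56 and -0.21, DNAJB9 by 0.87, -0.047 and 0.64, and CALR by -1.42, 0.29 and -0.034. Of the mitochondrial list, the protease LONP1 was higher by 0.86, 0.32 and 0.12, and HSPA9, the mitochondrial HSP70, by 0.85, 0.037 and 0.15. Other genes of that list changed sign between days. TRAP1 differed by 0.73, -0.13 and -0.23, YME1L1 by 0.41, -0.059 and 0.22, and HSCB by -0.23, 0.24 and 1.11. All of these mitochondrial genes but HSCB stood highest against siCtrl on day 2.

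The other lists were drawn up by family and hold proteins of several compartments. The J-domain family had 12 of 19 genes higher and 7 lower with a median of 0.10, led by DNAJB2, which was higher by 0.54, 0.62 and 0.65 on the 3 days (fitted 0.60 ± 0.23, SE; limma, adjusted p = 0.607). HSP90 and its co-chaperones had 7 of 11 higher and 4 lower with a median of 0.048, where the co-chaperone ST13 differed by 0.40, 0.29 and 0.62. The chaperonin TRiC and prefoldin, which fold actin and tubulin, had 6 of 13 higher and 7 lower with a median of -0.0065. The remaining HSP70 and HSP110 genes were split 3 and 3 with a median of 0.080, the exchange factors 3 and 3 with -0.12, and small heat shock proteins 1 and 1. Of the heat shock factors and partners HSBP1 alone was tested, at 0.34.

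For siCtrl against MOCK no list gene passed either. The further HSP70 and HSP110 genes had 5 of 6 higher and 1 lower, with a median of 0.44 beside -0.036 for all 8312 genes, the same side of MOCK as HSPH1 and HSPA8. HSPA4, an HSP110 protein like HSPH1, was above MOCK by 1.00 and 1.23 in siCtrl cells on day 2 and day 4 at ILMN_1755134 (fitted 1.12 ± 0.25, SE; limma, adjusted p = 0.167). The genes of the endoplasmic reticulum had 6 of 18 higher and 12 lower with a median fitted value of -0.13, where HSPA5 itself had a fitted 0.11 and lay below MOCK on both single days. Among these, the lectin chaperone CALR was below MOCK by -0.74 and -1.36, and DDIT3 (CHOP), a factor of the unfolded protein response, had a fitted difference of -0.83 ± 0.28 (SE; limma, adjusted p = 0.184). The J-domain family was split 10 and 9 with a median of 0.10, and DNAJC10, a J-domain reductase of the endoplasmic reticulum, was higher by 1.66 and 0.99. Mitochondrial chaperones and proteases had 4 of 11 higher and 7 lower with a median of -0.055, and the protease subunit CLPP was lower by -1.31 and -1.10. TRiC and prefoldin had 8 of 13 higher and 5 lower with a median of 0.14, and PFDN4 was higher by 1.73 and 0.96. HSP90 and co-chaperones were split 6 and 6, exchange factors 3 and 3, and small heat shock proteins 1 and 1.

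**Figure D4:**
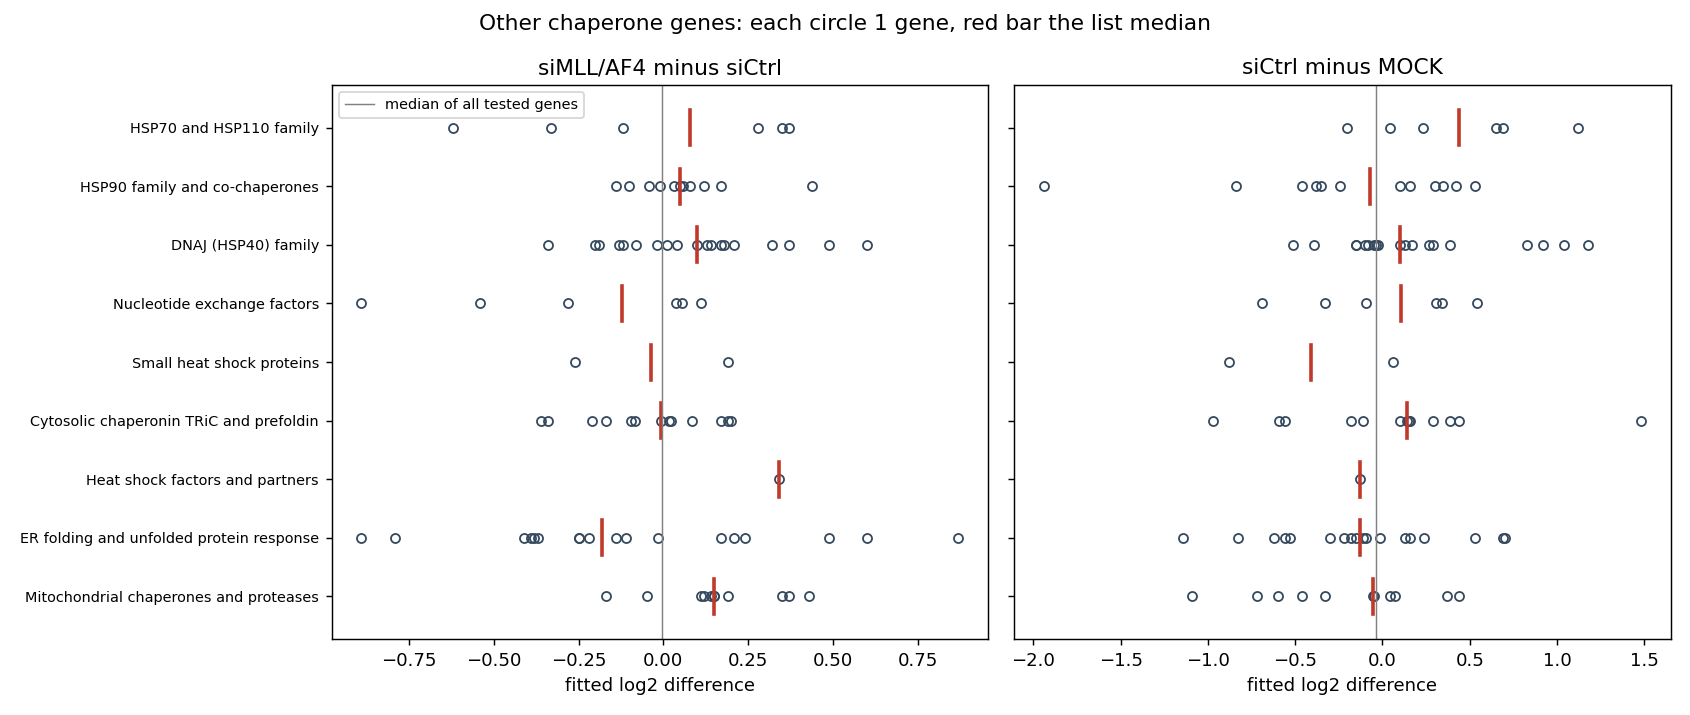
Each circle is 1 gene of a list, placed by its fitted log2 difference (x axis) for siMLL/AF4 minus siCtrl (left) and siCtrl minus MOCK (right); red bars are list medians, the grey line is the median of all tested genes, and the panels have different x scales. The endoplasmic reticulum list leans to lower values in both panels (medians -0.18 and -0.13), and the HSP70 and HSP110 list to higher values against MOCK (0.44).

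The genes most like a member over the 8 arrays were ranked by Pearson correlation of values centred on the day mean, among 8311 genes, as a description in which all genes share the same few arrays. The pattern of HSPA1A was followed most closely by ANAPC13 (0.983), GTPBP8 (0.978) and its own copy HSPA1B (0.977). HSPA8 was followed by DENND1B (1.000), KCNS3 (0.991) and PHF20L1 (0.990), and HSPD1 (ILMN_1766713) by TUBB (0.994), HNRNPM (0.991) and TXNDC5 (0.983). HSPA5 was followed by GCAT (0.998), SCHIP1 (0.996) and ARHGAP30 (0.995), and the largest of its day-centred values were those of the day 6 pair. The named genes do not stand alone. A correlation over 0.95 was reached by 14 genes for HSPA1A, 65 for HSPA8, 43 for HSPD1 and 90 for HSPA5.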

How the data were processed

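Biotin-labelled RNA of 8 SEM samples was read on Illumina bead arrays, per the labels' protocols. The submitters' processing notes name GenomeStudio without a version; how background and normalization were handled is not stated there. Expression was deposited without a log base and read here as natural log values, a unit inferred because the highest value corresponds to a linear intensity of 38664 as a natural log and 1512 as a log2. All columns mapped to a sample. Null entries, 28.5% to 28.8% of each array, were treated as missing. Of 39421 probes, 27210 have 1 gene symbol in the platform annotation, 8 have several and 12203 are not listed; 27177 matched RefSeq names.

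Values were divided by ln 2. A probe with 1 symbol entered a test if no array of that model lacked a value and if, in each array version, its mean reached the median over all probes with a value. Tests used limma 3.58.1 in R 4.3.3 (lmFit and eBayes, two-sided) with Benjamini-Hochberg adjustment over all tested probes at 0.05. Models were siMLL/AF4 minus siCtrl on 6 arrays with the time point as a block, each siRNA group minus MOCK on 8 arrays with the same block, and day 4 minus day 2 on 6 older arrays with the treatment as a block. The replicate number in the labels is the time point, so the shared day pairs the samples. Each model was tested on simulated data. Precision is limited by how few arrays there are.

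The 10 genes, the lists and the tests were chosen with earlier results of these data known. All probes of the 10 genes were named, of each list up to 4 genes with the largest siMLL/AF4 minus siCtrl difference and up to 2 with the largest siCtrl minus MOCK difference, and up to 2 markers per cell type; markers lacking values were named after they were seen. In the lists the brightest tested probe stood for a gene, so HSPA4 can be read at different probes in different models. Alternatives covered scale offsets of 16 and 64, filters, normalization, variance model, probe choice, blocks and the arrays used. A filter at the median of the probes with values on all arrays was added after seeing the data. Promoters were taken from RefSeq and aligned with Biopython 1.88, and figures were drawn with matplotlib 3.10.9.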

Additional observations from a re-analysis of the deposited data

Results flagged for a closer look

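For 3 chaperone probes the difference siMLL/AF4 minus siCtrl had 1 sign on day 2 and day 4 and the opposite sign on day 6. DNAJB1 differed by 0.10 and 0.042 on day 2 and day 4 and by -0.21 on day 6, which puts day 6 at -0.28 from the mean of the earlier days. HSP90AA1 at ILMN_1691097 differed by -0.072, -0.014 and 0.31 on day 2, 4 and 6, so that day 6 stood 0.36 above the mean of the earlier days. At ILMN_2373515 the HSP90AA1 values were -0.063, -0.073 and 0.092, and day 6 stood 0.16 above. These differences between days were not tested, since each treatment and day had 1 array. Day 6 and the newer array version cannot be told apart.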

How the results depend on the processing

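Of the values of single probes under other settings, 722 kept their direction and their side of the threshold, 15 reversed and 3 newly passed; of the counts and medians, 100 stayed close and 20 moved. No probe passed in any of the 4 comparisons of the main analysis. For siMLL/AF4 minus siCtrl, 10 probes passed with an offset of 16, 52 with an offset of 64, 33 with a filter at the 70th percentile, 30 with the filter added after seeing the data, 58 with a trended robust variance and 6 with all 8 arrays in the fit. For siMLL/AF4 minus MOCK the same settings gave 16, 568, 510, 635 and 496, and 1 probe per gene gave 6. For siCtrl minus MOCK the added filter gave 209, and for day 4 minus day 2 an offset of 64 gave 67, the added filter 92 and the trended robust variance 6. Chaperone and list probes that newly passed did so only under the added filter: HSPA1A for siMLL/AF4 minus MOCK (limma, adjusted p = 0.0469), and DNAJC10 and CLPP for siCtrl minus MOCK (0.0470 each). The chaperone median for siCtrl minus MOCK was 0.30 with 1 probe per gene, 0.051 with no replicate block, and 0.19 to 0.36 with a time point left out; for siMLL/AF4 minus MOCK it was -0.051 with no replicate block. HSPA5 in siCtrl minus MOCK was -0.28 with no replicate block, -0.23 on the 6 older arrays and -0.23 to 0.36 with a time point left out. Leaving out a time point turned the sign of siMLL/AF4 minus siCtrl for DNAJB1 (-0.084 to 0.069), HSPH1 (-0.019 to 0.18), HSPA8 at ILMN_2413084 (-0.027 to 0.014), HSP90AA1 at ILMN_1687546 (-1.51 to 0.051), ILMN_1691097 (-0.043 to 0.15) and ILMN_2373515 (-0.068 to 0.014), HSP90AB1 (-0.42 to 0.28), HSPD1 at ILMN_1766713 (-0.43 to 0.15) and ILMN_1784367 (-0.51 to 0.11), and HSPE1 at ILMN_2092536 (-0.84 to 0.31). The cause was not tested. Dropping the replicate block changed no other call. Against MOCK, a fit without that block sets the day 6 siRNA arrays against MOCK arrays of earlier days only. In 10 simulations of siMLL/AF4 minus siCtrl on 10765 probes, 200 probes were changed and noise was drawn separately for each probe. There, log2 changes of 1, 2 and 3 passed in 0.600%, 67.8% and 94.2% of cases. Under these settings a 2-fold change was mostly missed, and the rates depend on how many probes are changed.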

Other observations

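HSPA2, an HSP70 gene best known from testis, had log2 levels of 6.97, 6.57 and 4.06 in siMLL/AF4 cells on day 2, 4 and 6, against 6.55, 6.66 and 6.25 in siCtrl cells and 6.51 and 7.02 in MOCK cells on day 2 and 4. The siMLL/AF4 array of day 6 was the lowest of the 8 for this gene, as it was for HSPA5. HSPB1, the small heat shock protein HSP27, had 11.09, 11.78 and 12.80 in siMLL/AF4 cells, against 11.61, 11.32 and 13.53 in siCtrl cells and 11.46 and 11.58 in MOCK cells, so both siRNA groups were highest on day 6, on the newer array version. CCT4, a subunit of TRiC, differed between siMLL/AF4 and siCtrl by 0.64, -0.35 and -1.30 on day 2, 4 and 6, with a sign change like that of HSP90AB1.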
